A study of Mus musculus with 7 samples.

Results

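The prohormone processing enzymes described here are 6 genes, Pcsk1, Pcsk2, Furin, Pcsk1n, Cpe and Pam, out of 21938 protein-coding genes of GENCODE M21. Their members in the data are the open chromatin peaks that overlap a gene body or the 20 kb on either side of it, 680 peaks of 1190565 over all 7 peak lists. The lists come from ATAC-Seq, in which a transposase inserts sequencing adapters into accessible DNA, on FACS-sorted alpha, beta and delta cells of mouse pancreatic islets. There were 2 alpha, 3 beta and 2 delta libraries. All mice carried the mIns1-H2b-mCherry and Rosa-LSL-YFP alleles, together with Gcg-Cre or Sst-Cre, so YFP marked cells with a history of glucagon or somatostatin promoter activity and mCherry marked cells with an active Ins1 promoter fragment. Animals were pooled by sex, and the age is not given in the labels. By the study's quality table, 3 libraries came from females (alpha 1, beta 2 and delta 1) and 4 from males.

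Peptide hormones are made as inactive precursors that are cut and trimmed inside secretory granules. Pcsk1 and Pcsk2 encode the prohormone convertases PC1/3 and PC2, which cut precursors after pairs of basic residues. Beta cells use both to make insulin, and PC2 releases glucagon from proglucagon in alpha cells. Furin encodes a convertase of the trans-Golgi network that is active in nearly all cells. Pcsk1n encodes proSAAS, an inhibitor of PC1/3. Carboxypeptidase E, the product of Cpe, removes the basic residues left by the convertases, and Pam encodes the enzyme that amidates peptides with a C-terminal glycine, as in amylin.

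Each of these genes had peaks in all 3 cell types. The regions at which the libraries of one cell type did not overlap the rest lay mostly in introns of Cpe, Pam and Pcsk2. The introns of these genes also held 74 of all 106 member regions. Within Cpe, a region 77.4 kb downstream of the start ranked higher in all 3 beta libraries than in any other, while a region at 68.1 kb ranked lower in all 3 beta libraries than in any other. Of 53 member regions called in at least 2 libraries, beta cells led at 3 (5.66%, against 4.5% of all such regions). They trailed at 1 (1.89%, against 7.92%), and delta cells led at 12 (22.6%, against 12%). This comparison of order was chosen after the values were seen and was not tested. No test of a member passed the threshold after adjustment across all genes or regions, and 0% of all genes or regions tested did. Sequences of some of the regions described below, and those upstream of Pcsk1 and Cpe, are shown as examples. They were chosen after the values were seen. Each was read from GRCm38 on the strand of its gene and is printed 5′ to 3′, with the 200 bases centred on the summit of the strongest peak for a region and the 250 bases before the annotated 5′ end for an upstream sequence. Capitals mark matches, on either strand, to any of 9 short motifs, which are TGACGTCA (CRE), TGCTGAC (Maf), TGTTTAC (forkhead), TAATTA (homeodomain), CAGATG (E-box), GTTGCC (RFX), CAAGTG (Nkx), GGGCGG (GC box) and CCAAT.

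The Cpe and Pam regions lie at chr8:64615526-64615725 (Cpe +77.4 kb), chr8:64629417-64629616 (Cpe +63.5 kb), chr8:64624876-64625075 (Cpe +68.1 kb), chr1:98055722-98055921 (Pam +39.8 kb) and chr1:97873740-97873939 (Pam +221.8 kb), all read on the minus strand. The Pcsk2 region at +133.7 kb, chr2:143679743-143679942 on the plus strand, was called only in the delta libraries.
Cpe +77.4 kb: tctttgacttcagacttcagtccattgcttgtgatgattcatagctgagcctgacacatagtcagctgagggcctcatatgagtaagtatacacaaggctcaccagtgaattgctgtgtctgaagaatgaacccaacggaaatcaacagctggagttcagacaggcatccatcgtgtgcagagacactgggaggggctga
Cpe +63.5 kb: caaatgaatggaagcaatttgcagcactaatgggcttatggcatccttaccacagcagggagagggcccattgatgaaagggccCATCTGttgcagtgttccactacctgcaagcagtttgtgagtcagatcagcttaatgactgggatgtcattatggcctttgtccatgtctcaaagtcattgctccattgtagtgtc
Cpe +68.1 kb: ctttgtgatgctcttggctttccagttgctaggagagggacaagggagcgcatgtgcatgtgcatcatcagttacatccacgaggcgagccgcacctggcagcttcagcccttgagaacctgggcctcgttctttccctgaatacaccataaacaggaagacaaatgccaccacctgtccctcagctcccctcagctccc
Pam +39.8 kb: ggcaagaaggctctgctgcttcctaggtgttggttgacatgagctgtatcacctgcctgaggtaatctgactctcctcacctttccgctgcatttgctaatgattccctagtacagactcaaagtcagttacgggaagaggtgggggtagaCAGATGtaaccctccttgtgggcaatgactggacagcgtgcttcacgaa
Pam +221.8 kb: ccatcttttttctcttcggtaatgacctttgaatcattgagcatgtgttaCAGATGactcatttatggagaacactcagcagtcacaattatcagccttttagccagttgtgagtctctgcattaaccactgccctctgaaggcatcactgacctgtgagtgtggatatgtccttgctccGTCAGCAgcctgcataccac
Pcsk2 +133.7 kb: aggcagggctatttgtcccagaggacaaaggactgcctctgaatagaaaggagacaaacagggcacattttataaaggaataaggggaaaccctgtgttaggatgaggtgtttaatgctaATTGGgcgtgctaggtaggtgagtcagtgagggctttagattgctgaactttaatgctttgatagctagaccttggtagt

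The GC content of these 6 windows was 48%, 47%, 55.5%, 51%, 45.5% and 44.5% in that order, beside a median of 47.5% over the windows of all 157214 regions searched and 61% over those of the 12605 regions called in all 7 libraries. The Cpe windows at +77.4 and +68.1 kb held none of the 9 motifs. The E-box letters CAGATG occurred in the windows of Cpe +63.5 kb, Pam +39.8 kb and Pam +221.8 kb, and 17.8% of all region windows hold them. The Maf letters occurred in the window of Pam +221.8 kb, beside 4.64% of all region windows. CCAAT occurred in the window of Pcsk2 +133.7 kb, beside 26.3%.

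The upstream sequences of Pcsk1 (chr13:75089576-75089825, plus strand) and Cpe (chr8:64693055-64693304, minus strand) show the gene starts with a weak and a strong peak.
Pcsk1 upstream: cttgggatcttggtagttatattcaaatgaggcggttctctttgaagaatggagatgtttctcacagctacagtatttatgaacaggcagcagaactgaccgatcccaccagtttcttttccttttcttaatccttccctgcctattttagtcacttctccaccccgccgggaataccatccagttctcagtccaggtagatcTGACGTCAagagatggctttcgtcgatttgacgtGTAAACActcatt
Cpe upstream: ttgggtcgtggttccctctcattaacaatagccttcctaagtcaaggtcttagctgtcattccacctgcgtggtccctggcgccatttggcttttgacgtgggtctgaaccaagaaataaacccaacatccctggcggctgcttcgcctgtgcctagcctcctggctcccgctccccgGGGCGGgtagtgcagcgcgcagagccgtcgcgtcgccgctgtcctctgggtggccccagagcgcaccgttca

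The Pcsk1 sequence held the CRE at position 204 counted from its first base, and 1.96% of the upstream sequences of all 21938 protein-coding genes hold these letters. It also held the forkhead letters on the minus strand at position 238, beside 2.67%. Its GC content was 44.4%. The Cpe sequence had a GC content of 61.2% and held 1 GC box, a motif in 39% of upstream sequences. The upstream sequence of Pcsk2 had a GC content of 80% and held 7 GC boxes, overlapping ones included, and 2 CCAAT motifs, and that of Pam had a GC content of 75.6% and held 2 GC boxes. The median over all genes was 54%.

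Each peak was ranked within its own list by the -log10 p of MACS2, from the strongest at rank 1, and the lists were compared through their 50000 strongest peaks because their lengths differed. Distinct peaks per list ranged from 75860 in delta 2 to 158066 in delta 1, except for beta 1 with 518503. The number that reached a -log10 q of 2 was 25903, 32047 and 38058 in the beta libraries, below the 41683 to 52057 of the other 4, and by the study's quality table every beta library had fewer unique reads than either alpha library. The part of depth in the beta results was not tested. Peaks at the starts of 4 alpha marker genes (Gcg, Irx1, Irx2 and Ttr) were called for all 4 in each alpha library, for 0, 1 and 2 in the beta libraries, and for 3 and 3 in the delta libraries. Of 6 beta marker genes, 3 and 2 had a peak in the alpha libraries, 4, 2 and 3 in the beta libraries, and 4 and 3 in the delta libraries, and Slc2a2 had none in any list. Of 4 delta marker genes, 3 and 3 had a peak in the alpha libraries, 2, 0 and 0 in the beta libraries, and 3 and 3 in the delta libraries, and Sst itself had a peak among the 50000 only in beta 1. Hhex and Rbp4 had a peak among the 50000 in both delta and both alpha libraries and in no beta library. By the delta marker starts, the delta libraries were set apart from the beta but not from the alpha libraries, and the beta markers set no cell type apart. The list labelled beta 1 was deposited under an alpha name and those of beta 2 and beta 3 under delta names, and every beta value here follows the labels. None of 5 acinar and none of 2 immune marker genes had a peak among the 50000 in any library. The duct gene Spp1 had one in both delta libraries and the endothelial gene Kdr one in delta 1, and their part in the results was not tested.

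The number of peaks per window was counted first, to ask whether any of the 6 loci was more open in one cell type. Pcsk1, on chr13:75089826-75134861, had 0 and 1 peaks in the alpha libraries, 1, 2 and 2 in the beta libraries, and 2 and 2 in the delta libraries. Every delta library was above both alpha libraries, and the beta libraries overlapped both. Pcsk2, on chr2:143546156-143816285, had 7 and 11 peaks in alpha, 6, 5 and 10 in beta, and 14 and 9 in delta libraries. All 3 cell types overlapped. When only peaks that reached a -log10 q of 2 were counted, Pcsk2 had 7 and 11 peaks in alpha, 3, 3 and 3 in beta, and 10 and 9 in delta libraries, so that every beta library was below all others (exact permutation p = 0.0286, adjusted p = 0.420). The beta lists held the fewest such peaks. Furin, on chr7:80388585-80405436, had 4 and 3 peaks in alpha, 3, 1 and 3 in beta, and 3 and 4 in delta libraries. Beta 2 was the lowest, and the rest did not separate.

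Pcsk1n, on chrX:7919822-7924410, had 3 and 2 peaks in alpha, 1, 0 and 2 in beta, and 1 and 1 in delta libraries. The alpha libraries were above both delta libraries and reached the highest beta library. Cpe, on chr8:64592542-64693054, had 12 and 7 peaks in alpha, 10, 11 and 12 in beta, and 12 and 16 in delta libraries. Pam, on chr1:97795114-98095646, had 12 and 16 peaks in alpha, 16, 14 and 16 in beta, and 20 and 18 in delta libraries. Both delta libraries had more Pam peaks than any of the other 5.

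**Figure D1:**
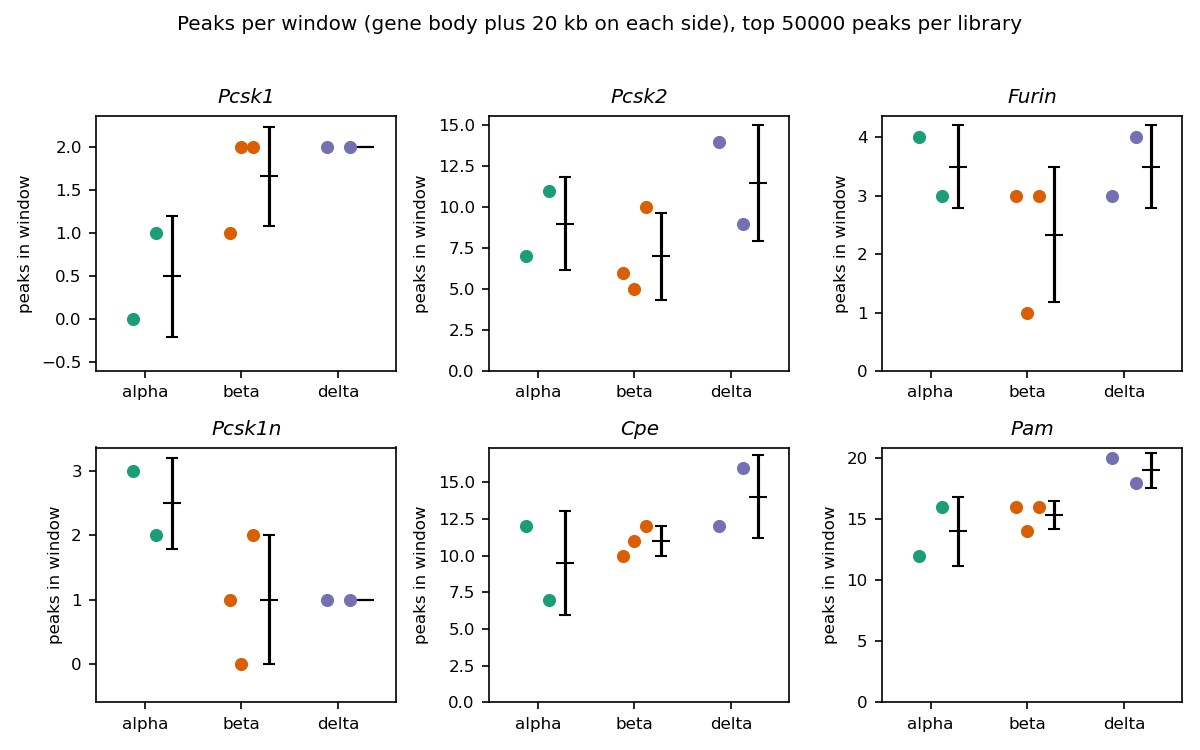
Number of peaks (y axis) in the window of each gene, by cell type (x axis). Each point is a library, and the bar beside the points is the mean with its SD (2 alpha, 3 beta and 2 delta libraries). Pam shows both delta libraries, at 18 and 20, above the other 5.

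The Pam means were 14 ± 2.83 (SD, n = 2) in alpha, 15.3 ± 1.15 (SD, n = 3) in beta and 19 ± 1.41 (SD, n = 2) in delta cells, with an exact permutation p of 0.124 and an adjusted p of 0.838. The exact p was 0.219 for Pcsk1 and for Pcsk1n, 0.295 for Cpe, 0.371 for Pcsk2 and 0.552 for Furin. None of the 6 had a p of at most 0.05, against 5.34% of all protein-coding genes, and 0% of all genes passed after adjustment by Benjamini-Hochberg. The test compares the spread between the 3 cell types over all 210 ways of assigning the libraries, and its smallest possible p is 0.00952. Under other settings of this test of peaks per window a member had a p of at most 0.05 in 3 cases, none of which passed after adjustment. These were Pcsk2 as above (beside 9.84% of all genes), Pcsk1 with 50 kb flanks (exact p = 0.00952, adjusted p = 0.586, beside 7.23%) and Pam without alpha 2 (exact p = 0.0333, adjusted p = 0.936, beside 3.16%). A comparison of beta with alpha or delta cells alone cannot go below 0.1, nor one of alpha with delta cells below 0.333. The labels call the libraries biological replicates. By the study's methods, beta cells were sorted from the same mice as alpha or delta cells. Alpha cells came from Gcg-Cre mice and delta cells from Sst-Cre mice, so alpha and delta libraries do not share animals. Between these 2 cell types, the Cre allele cannot be told apart from the cell type. Beta libraries can share animals with either, and which of them do is not given in the sources used here. The permutation test over 210 assignments took no account of shared animals.

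Window size set much of the count. Per 100 kb, Cpe had 4.98 to 11.4 peaks over the 7 libraries, all above the library's median over protein-coding genes, which ranged from 2.27 to 3.07. Pam had 3.52 to 5.87, also above that median in every library. Pcsk2 had 1.61 to 4.51 and lay on both sides of it, as did Pcsk1 with 0 to 2.35 and Pcsk1n with 0 to 6.73. Furin, in a window shared with Fes and Man2a2, had 1.76 to 7.04.

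The peak at the start of each gene was examined next. Of the 6 genes, 3 (Pcsk2, Cpe and Pam) had a start peak, one that comes within 1 kb of the gene's 5′ end, among the 50000 strongest of all 7 libraries, against 34.5% of all protein-coding genes. Cpe and Pam had the strongest. Cpe ranked at 2877 and 1255 in alpha, 1244, 3142 and 1089 in beta, and 1950 and 1091 in delta libraries. Its fold enrichment over the local background was 9.52 to 17.4. Pam ranked at 2563 and 1338 in alpha, 2236, 1590 and 3067 in beta, and 2794 and 1667 in delta libraries, with a fold enrichment of 11.1 to 18.8. For both genes each cell type overlapped each other one.

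Pcsk2 ranked at 7433 and 4884 in alpha, 3211, 9274 and 4315 in beta, and 4780 and 2373 in delta libraries. Its summits lay between -284 and -124 bases relative to the 5′ end, whereas those of Cpe and Pam lay within 60 bases of theirs. The start of the antisense gene Pcsk2os1 lies within 1 kb of the same region, and ATAC-Seq does not tell the genes apart. Pcsk1 had a weaker peak. It ranked at 52553 and 28371 in alpha, 27284, 10825 and 17890 in beta, and 23833 and 28729 in delta libraries, so alpha 1 fell outside the 50000. All 3 beta libraries ranked above both alpha libraries, and the delta libraries fell between the extremes of both. The summit of the strongest Pcsk1 peak was 21 to 883 bases after the 5′ end and moved between libraries, over 2 separate regions.

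Pcsk1n ranked at 24149 and 11380 in alpha, 15778 and 11014 in beta 1 and beta 3, and 7644 and 7716 in delta libraries, with no peak in the full list of beta 2. Both delta libraries ranked above every other library. Furin had no start peak in any full list. Its open start was instead 2.6 kb downstream, at chr7:80402084-80403056, where 3 further Furin transcripts begin between 2114 and 2859 bases from the 5′ end. This peak ranked at 13513 and 18264 in alpha, 77739, 72322 and 11974 in beta, and 24373 and 13854 in delta libraries. It was weak in 2 of 3 beta libraries, and beta 3 had the strongest of all.

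**Figure D2:**
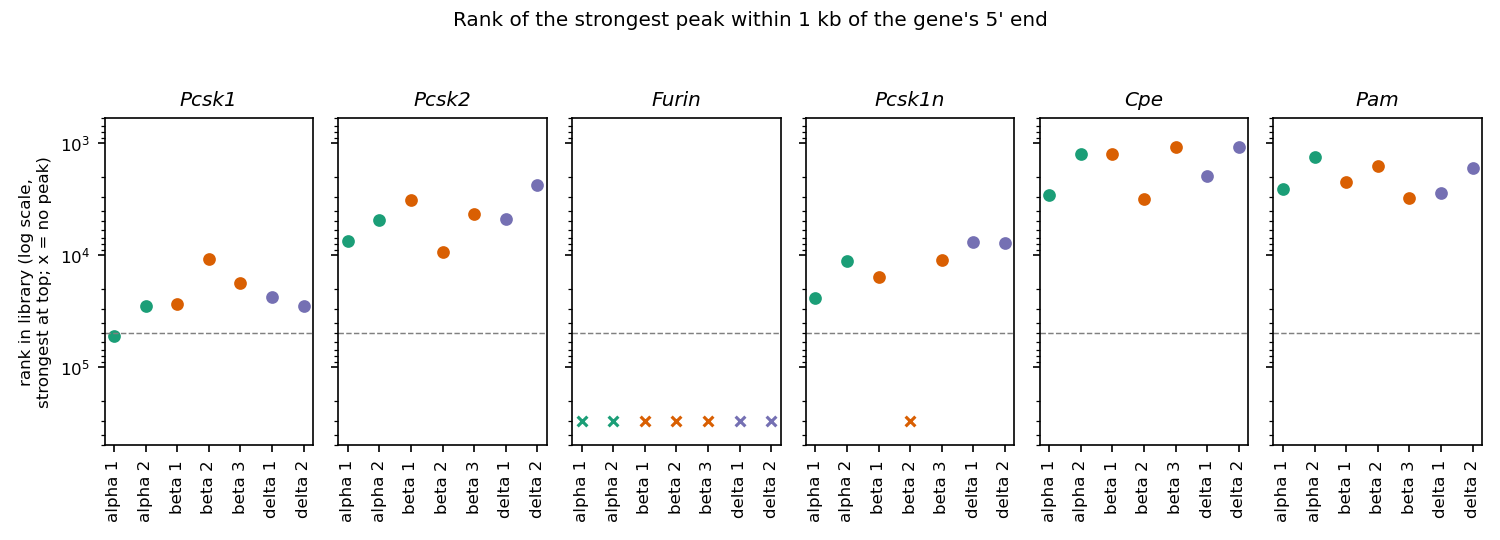
Rank (y axis, log scale, strongest at the top) of the start peak of each gene, by library (x axis). Crosses mark libraries with no peak and the dashed line marks rank 50000. Cpe and Pam lie between ranks 1089 and 3142 in all 7 libraries, and Furin has no peak at its 5′ end.

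The rank was tested for the 4 genes with a start peak in all 7 full lists, on the log10 scale. The exact permutation p was 0.152 for Pcsk1 (adjusted p = 0.573), 0.486 for Pcsk2, 0.790 for Pam and 0.848 for Cpe. None had a p of at most 0.05, against 9.44% of the 9112 genes tested, and 0% passed after adjustment. The genes whose start ranks varied most like those of a member over the 7 libraries were Srgap2 and Fam72a for Pcsk1 (Pearson's r = 0.977 for both), and Tmem165 and Rnf2 for Pcsk2 (r = 0.980 and 0.978). They were Arhgef18 and Slc30a7 for Cpe (r = 0.976 and 0.973), and Lmbr1l and Cd109 for Pam (r = 0.968 and 0.952). Srgap2 and Fam72a had the same r of 0.976949, so they may not be 2 separate likenesses. All of these are the highest of 9112 values each over 7 libraries, and are given as a description.

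Peaks that overlapped by at least 1 bp were then merged across libraries. The 6 windows held 106 of 157229 merged regions, with 37 at Pam, 33 at Pcsk2, 23 at Cpe, 8 at Furin, 3 at Pcsk1n and 2 at Pcsk1. Introns of the members held 74, and 13 lay at an annotated start of the member itself. Of the 106, 53 (50%) were called in 1 library alone, against 63.8% of all regions. 15 regions (14.2%) were called in all 7 libraries, against 8.02% of all regions. They comprised 7 at Pam, 5 at Cpe, 2 at Pcsk2 and 1 in the Furin window, which lies at the start of Man2a2.

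Apart from the starts, the strongest regions shared by all libraries lay deep in the introns. The Cpe region at +28.1 kb, chr8:64664713-64665309, ranked at 1479 and 1584 in alpha, 1386, 7357 and 3983 in beta, and 1243 and 1448 in delta libraries. The Pam region at +177.0 kb, chr1:97918284-97918931, ranked at 1678 and 1779 in alpha, 697, 7136 and 3887 in beta, and 2120 and 1336 in delta libraries. Beta 2 and beta 3 were the weakest at both regions, while beta 1 was stronger than both alpha libraries, and these 2 intronic peaks had ranks of the same order as the starts of their genes.

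Pcsk2 had 1 shared intronic region, at +95.6 kb (chr2:143641496-143642031). Its ranks were 19815 and 9583 in alpha, 15014, 14981 and 18767 in beta, and 3539 and 14016 in delta libraries. Delta 1 stood apart, and the other 6 libraries overlapped. At Pam, the region at +118.4 kb lies at internal starts of Pam and ranked from 2541 to 12031, and the region at +47.8 kb lies at the start of B230216N24Rik and ranked from 1144 to 5483. Further starts of neighbouring genes in the windows carried a region in 1 library each (Fes in 2 regions, Timm17b and Gm10491 together, Gm3531 and Pcsk2os1) or in 3 libraries (Hdac6).

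**Figure D3:**
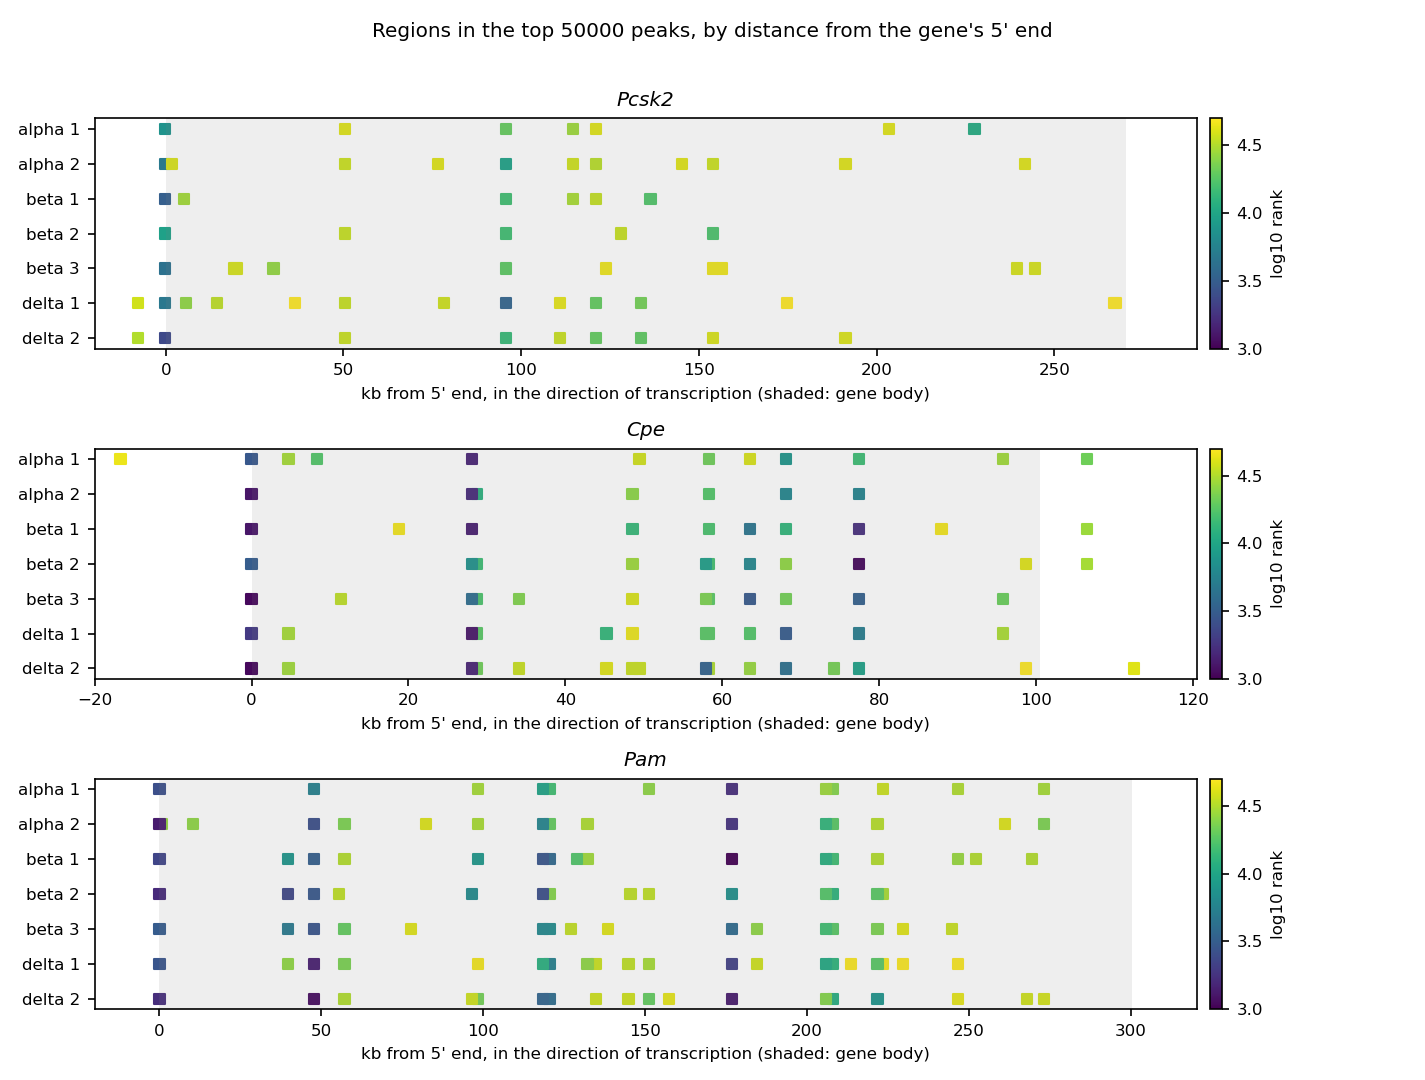
Regions of the 50000 strongest peaks at Pcsk2, Cpe and Pam in each library (y axis), by distance of the summit from the 5′ end in kb (x axis). The shading is the gene body and the colour is the log10 rank, with dark for strong. Columns filled in all 7 libraries are the shared regions, 7 of them at Pam.

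No member region was called in every library of alpha cells alone (1.33% of all regions) or of beta cells alone (0.253%). There was also none for alpha and delta without beta (1.27%), alpha and beta without delta (0.0776%) or beta and delta without alpha cells (0.291%). For delta cells alone there were 6 of 106 (5.66%), against 1.53% of all regions. Leaving out delta 1 gave 11 of 98 and leaving out delta 2 gave 14 of 101, beside 8.45% and 7.50% of all regions. With the 25000 strongest peaks there were 2 of 43, beside 2.02% of all regions.

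The delta regions were intronic except for 1 upstream of Pcsk2. The Pcsk2 region at +133.7 kb ranked at 21628 and 18807 in the delta libraries, with a fold enrichment of 6.59 and 6.58, and overlapped no peak in any of the 5 other full lists. For the other 5 a weaker peak was present elsewhere. Pcsk2 -7.8 kb ranked at 37739 and 31864 in delta cells and at 60539 in alpha 1, 57824 in alpha 2 and 129956 in beta 1. Pcsk2 +111.0 kb ranked at 42827 and 35890, and at 76817 in beta 3. Cpe +45.2 kb ranked at 13135 and 41378, and at 72379 in beta 2.

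The remaining pair lay in Pam. Pam +144.9 kb ranked at 34005 and 37164 in the delta libraries and at 94086 in alpha 2, and Pam +134.8 kb at 36333 and 36933 and at 64671 in beta 1. At those 5 regions a library of another cell type thus had a peak beyond rank 50000. How weak a signal could have gone uncalled cannot be computed from peak lists.

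The order of the libraries was compared for the 53 member regions of at least 2 libraries, with an absent peak taken as last. This measure was chosen after the values were seen, and no test was run on it. All delta libraries ranked ahead of every other library at 12 regions (22.6%), against 12% of all 56854 such regions, and 6 of the 12 are the regions above. All alpha libraries ranked ahead at 2 (3.77%), against 10.3%, and all beta libraries at 3 (5.66%), against 4.5%. Behind every other library were the alpha libraries at 3 regions (5.66%, against 4.04%), the beta libraries at 1 (1.89%, against 7.92%) and the delta libraries at 0 (against 1.38%).

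The 3 regions led by beta cells were Cpe +77.4 kb, Cpe +63.5 kb and Pam +39.8 kb. The beta lists held fewer peaks that reached a -log10 q of 2 than the others, and the part of depth in this order was not tested. Cpe +77.4 kb (chr8:64615411-64615916, intron) ranked at 14578 and 5841 in alpha, 1692, 1080 and 3270 in beta, and 5204 and 9218 in delta libraries. The weakest beta library was stronger than the strongest other library. The deposited fold enrichment overlapped, with 12.2 to 15.1 in beta against 7.61 to 13.5 in the other libraries. Ranked by fold enrichment within each library, alpha minus beta in mean log10 rank was 0.760, against 0.706 by -log10 p. The exact permutation p was 0.0571 by fold enrichment and 0.0667 by -log10 p, with adjusted p of 0.430 and 0.445.

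Cpe +63.5 kb (chr8:64629323-64629795, intron) ranked at 39562 in alpha 1, at 4559, 6111 and 2990 in beta, and at 17257 and 27443 in delta libraries, with no peak in alpha 2. The beta libraries did not overlap the rest, and the delta libraries were ahead of the alpha libraries. Pam +39.8 kb (chr1:98055514-98056006, which overlaps an exon of Pam) ranked at 7723, 2298 and 4921 in beta cells. It ranked at 26263 and 66004 in delta libraries, at 54622 in alpha 2, and was absent from the list of alpha 1. Because 1 alpha library had no peak, neither region could enter the test.

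Cpe +68.1 kb (chr8:64624757-64625425, intron) had the opposite order. It ranked at 7728 and 5988 in alpha, 12896, 25992 and 21717 in beta, and 3085 and 4155 in delta libraries. The 3 cell types did not overlap, with delta cells strongest and beta cells weakest. Fold enrichment was 4.4 to 5.17 in beta, 10.2 and 12.1 in alpha, and 14.4 and 12.7 in delta libraries. Lists can differ in fold enrichment at similar ranks, as with 5.17 at rank 12896 of beta 1 and 8.05 at rank 12908 of alpha 2. The mean log10 rank by -log10 p was 3.83 ± 0.08 (SD, n = 2) in alpha, 4.29 ± 0.16 (SD, n = 3) in beta and 3.55 ± 0.09 (SD, n = 2) in delta cells. The exact permutation p was 0.00952, the smallest possible, and the adjusted p 0.376. Ranked by fold enrichment within each library, beta minus delta in mean log10 rank was 0.602, against 0.733 by -log10 p, with an exact p of 0.019. So the Cpe intron sequence held regions of both orders, with the beta-led ones on either side of this one.

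Pam +221.8 kb (chr1:97873514-97874070, intron) was the other region at the smallest p. It ranked at 99051 and 32428 in alpha, 31878, 18269 and 23092 in beta, and 18185 and 7567 in delta libraries. The order was alpha, beta, delta from weak to strong, without overlap, but the neighbouring libraries were close, alpha 2 to beta 1 and beta 2 to delta 1. Its adjusted p was also 0.376. Ranked by fold enrichment its exact p was 0.0571, and without alpha 1 or delta 2 it was 0.233 and 0.217. In all, 2 of 20 member regions tested had a p of at most 0.05, against 11.6% of the 17759 regions called in all 7 full lists, a share near the background, and 0% of all regions passed after adjustment.

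**Figure D4:**
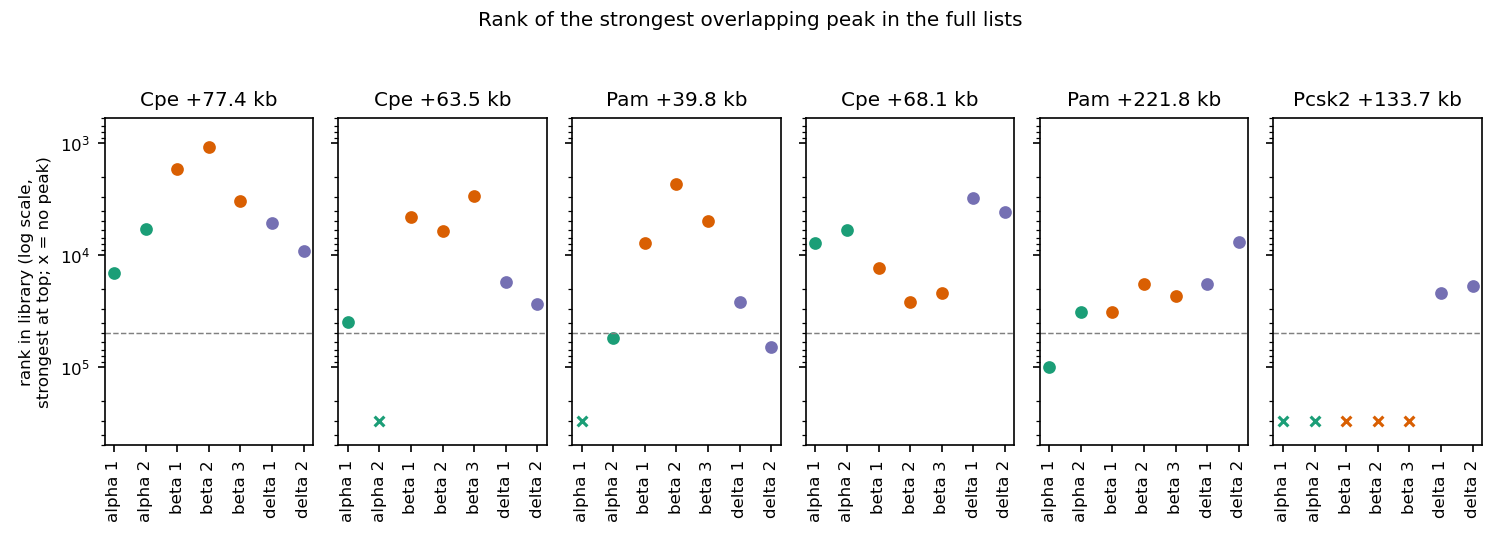
Rank (y axis, log scale, strongest at the top) of the strongest peak over 6 regions in the full list of each library (x axis). Crosses mark libraries with no peak and the dashed line marks rank 50000. The beta libraries are the 3 strongest at Cpe +77.4 kb, Cpe +63.5 kb and Pam +39.8 kb and the 3 weakest at Cpe +68.1 kb.

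For context, 21 other genes that act on precursors and peptides were counted in the same way. Of these, 14 had a start peak in all 7 libraries, a larger share than the 34.5% of all genes, and 2, Ide and Spcs2, had none in any library. Only the gene's annotated 5′ end was examined, which for Furin missed the open start. The windows held 2 to 4 peaks per library for Spcs2 and 0 to 2 for Ide. Scg5, which encodes the 7B2 chaperone of PC2, ranked from 1965 to 4808, beside 2373 to 9274 for Pcsk2. Among further convertases, Pcsk4 ranked from 2244 to 8396, Pcsk6 from 14257 to 28665 and Pcsk7 from 8488 to 37775, all in 7 libraries. Mbtps1 (site-1 protease) had a start peak in 6 libraries and Pcsk5 in 5.

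In the test of peaks per window, 3 of the 21 genes had an exact permutation p of at most 0.05, against 5.34% of all genes, and none passed after adjustment (Benjamini-Hochberg over all genes, adjusted p = 0.764 for each). Pcsk5, a convertase with broad expression, had 8 and 8 peaks in alpha, 2, 5 and 3 in beta, and 2 and 1 in delta libraries (exact permutation p = 0.0286). Both alpha libraries were above all others. Dpp4, a dipeptidyl peptidase that trims incretins, had 2 and 6 peaks in alpha, 8, 7 and 5 in beta, and 10 and 11 in delta libraries (exact p = 0.0381). Sec11c, a catalytic subunit of the signal peptidase, had 3 and 3, then 4, 4 and 5, then 3 and 3 peaks (exact p = 0.0286). By the rank of the start peak, 1 of the 16 genes tested, the carboxypeptidase gene Cpm, had a p of at most 0.05 (exact p = 0.019, adjusted p = 0.484), against 9.44% of all genes tested.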

How the data were processed

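ATAC-Seq peak lists of 7 libraries were analysed, sorted from a median of 20000 cells per sample and sequenced as single-end reads of 50 bp. The authors trimmed reads with Trimmomatic, aligned them with Bowtie2 to mm10 (GRCm38), marked duplicates with Picard, took out blacklisted regions, and ran MACS2 on each library alone. In the deposited lists, -log10 q and -log10 p are as MACS2 gave them. The fold enrichment is the deposited ratio of MACS2 signal to local background. The deposited score was not used. Read counts per region were not used here, so no count test was run, and the precision within a library is unknown.

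Repeated intervals were counted once, with the highest -log10 p. Peaks were ranked within a list by -log10 p, and the 50000 strongest were compared. Genes, their windows (20 kb flanks) and starts (1 kb up and down from the 5′ end) came from GENCODE M21, and peaks overlapping by at least 1 bp were merged. Counts per window and log10 ranks were tested by an exact permutation test of the sum of squares between cell types, without direction, over 210 assignments. P-values were adjusted by Benjamini-Hochberg over all genes or regions tested, at a threshold of 0.05. The test was checked on simulated data. Python 3.11.15, numpy 2.4.6, pandas 2.3.3 and matplotlib 3.10.9 were used.

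The members and lists were chosen with earlier results of these data known. The text names the members, neighbouring genes with a region at their start, Scg5 and further convertases, the 2 genes most like each member, regions at starts, in all libraries or of 1 cell type, and further genes and regions chosen after their values were seen. Alternatives were the list depth, the window, the ranking, assignments within replicate number or sex, and leaving out each library. In 2 of the gene lists, 1 gene each is not reported here and was left out of the counts.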

Additional observations from a re-analysis of the deposited data

How the results depend on the processing

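No member passed the threshold after adjustment in any alternative of the tests, and the lowest adjusted p of a member was 0.375. No gene or region of the whole series passed in any of them either. The lowest adjusted p over all of these was also 0.375, for region rank by fold enrichment. Staying on the same side of the threshold therefore says nothing about stability. Of 463 alternative values, 432 kept their direction and side of the threshold or, for counts, stayed within 1.5 times. In the full lists, where beta 1 has by far the most peaks, the differences in peaks per window reversed for Pcsk2 (delta minus beta, -13.3), Furin (alpha minus beta, -1.5) and Pcsk1n (alpha minus beta, -0.5). Small differences in mean log10 rank also reversed on leaving out 1 library. They ranged from -0.0653 (without alpha 1; also below 0 without delta 2, at -0.0112) to 0.295 for the Cpe start (alpha minus delta), from -0.0629 (without alpha 2) to 0.219 for the Pam start (beta minus alpha), from -0.0541 (without alpha 1) to 0.284 for Pam +205.9 kb (alpha minus beta), and from -0.00965 (without beta 2) to 0.495 for Pam +177.1 kb (beta minus delta), and the cause was not tested. Member regions of 1 cell type numbered 6, 3 with the 25000 strongest peaks, and 6 to 16 on leaving out a library, with the most without alpha 1, where 1 library alone stands for alpha cells. Without alpha 1, 9 of 99 member regions were of alpha cells alone, beside 7.59% of all regions. Another 7 were of delta cells alone, beside 1.998%. With all 7 libraries, 0 of 106 were of alpha cells alone, beside 1.33%, and 6 of delta cells alone, beside 1.53%. Member regions in all libraries numbered 15 of 106, beside 8.02% of all regions. They numbered 9 of 106, beside 3.58%, when a peak had to cover at least 0.5 of the merged region. The counts of regions led or trailed by 1 cell type, an alternative chosen after seeing the data, moved by over 1.5 times in 14 cases, all on leaving out a library.

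Replicate numbers were not taken to pair the libraries. Animals were pooled by sex, and a beta library differs in sex from the alpha or delta library of the same number. Alpha and delta libraries do not share animals. The correlations between libraries of the same number ranged from -0.02 to 0.01. They could not have shown shared animals, and they do not bear on animals shared across the numbers. With the replicate block the number of members past the threshold stayed at 0, but its 36 assignments cannot give a p below 0.0556, so it says nothing about stability. The same holds for leaving out a beta library, where the smallest p is 0.0667. Within sex, Cpe +68.1 kb and Pam +221.8 kb had an exact p of 0.0278, the smallest of 72 assignments, beside 6.42% of all regions at a p of at most 0.05. An exact p of at most 0.05 was also gained by the Pcsk1 start ranked by fold enrichment (0.0476, beside 9.66% of the genes tested). Pam +47.8 kb gained one without alpha 1 (0.0333, beside 7.51% of regions) or alpha 2 (0.0167, beside 8.02%). Cpe +58.4 kb gained one without delta 1 (0.05, beside 8.94%).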
